A study of Schizosaccharomyces pombe with 15 samples.

Results

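The regions described here are the Pcr1 peaks of fission yeast (Schizosaccharomyces pombe) that carried no Atf1 peak. A Pcr1 interval was taken as a member when it overlapped no Atf1 interval by even 1 bp, and 310 of the 1567 Pcr1 peaks (19.8%, exact 95% interval 17.8 to 21.8) met this rule. The other 1257, which overlapped an Atf1 interval by at least 1 bp, are called shared peaks. The members were thus chosen by Atf1 overlap alone, a measured value, so their Pcr1 values, widths and distances to Atf1 are given as description without a test. Only 1 list per protein was used, so there is no replicate, read depth is unknown, and each p-value describes these lists and not the spread between cultures.

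The peaks come from chromatin immunoprecipitation sequencing with the M2 antibody against the FLAG epitope. There were 15 samples in 8 groups, with 2 precipitations of each tagged protein (Pcr1, Atf1, Orc1 and Deb1). The Atf1 and Pcr1 strains were h90 ade6-M210 leu1-32 ura4-D18, had cenH of the silent mating-type region replaced by 9xtetO-ura4, and carried atf1-3xFLAG-hph or pcr1-3xFLAG-hph. The Deb1 strain had the same mating type and auxotrophic markers with deb1-3xFLAG-hph, and the Orc1 strain had those markers with orc1::5xFLAG-orc1-kan. Input samples of the Deb1 and Orc1 strains, Atf1 precipitations from cells lacking the sites s1 and s2, and 1 untagged precipitation have no list used here. All cells grew in rich medium at 32 °C, spent 2 hours at 18 °C and were fixed there.

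Pcr1 and Atf1 are basic leucine zipper (bZIP) proteins of the ATF/CREB family. They bind DNA as a heterodimer, act downstream of the stress-activated kinase Sty1, and serve in stress responses, sexual development and the nucleation of heterochromatin at the mating-type locus. Factors of this family recognise the ATF/CRE palindrome TGACGTCA, and TGACGT, its first 6 bases, is called the core here. The other proteins mapped were Orc1, which belongs to the origin recognition complex at replication origins, and Deb1, which binds DNA.

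The core was searched on both strands within 100 bp of each summit, in the part of the genome where list and reference coordinates coincide. This annotated part holds 254 of the 310 members (81.9%) and 1015 of the shared peaks. The core lay near 11 of the 254 member summits, and the 8 of highest fold enrichment are shown because they are the members' own matches to the ATF/CRE core. Each line gives 30 bases of the RefSeq assembly ASM294v3, 5′ to 3′, with the core in capitals and oriented as TGACGT; the name is the protein-coding gene with the nearest start.

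rod1, chr1:411764-411793, minus strand: actgttgtgtggTGACGTttttataagcaa
SPAC1039.01, chr1:5444576-5444605, minus strand: cgaaagagatatTGACGTggagatttccat
isu1, chr1:518667-518696, plus strand: cttatacgtaaaTGACGTtaaaaagtgtgt
tcg1, chr2:216586-216615, minus strand: agggagagaacgTGACGTgcggaaacatga
SPAPB1A11.02, chr1:2982408-2982437, plus strand: tcctcagaagttTGACGTctgccttaattt
ole1, chr3:1393628-1393657, plus strand: agaaacccttctTGACGTtgtagggatcct
maf1, chr1:3009387-3009416, minus strand: tagaagtgacatTGACGTtggacgcgacgc
rps902, chr2:2060172-2060201, minus strand: ccaacacggatgTGACGTtggaagatcaac

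For contrast, 3 shared peaks of high fold enrichment are shown in the same way, at cds1 (6.82-fold), pqr1 (6.68-fold) and osh6 (6.48-fold). In these the bases after the core complete the palindrome.

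cds1, chr3:740684-740713, minus strand: tttacaatttacTGACGTcatttaggaacg
pqr1, chr1:2423899-2423928, plus strand: agcatttcccccTGACGTcataaaaagagc
osh6, chr3:1266969-1266998, plus strand: tccaggtctaaaTGACGTcagtcatctcag

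In none of the 8 member sites do the bases after the core complete the palindrome. The Pcr1 fold enrichment at these sites ran from 2.88 at rod1 to 1.92 at rps902, with 2.30 at SPAC1039.01, 2.21 at isu1, 2.12 at tcg1, 2.01 at SPAPB1A11.02, 2.00 at ole1 and 1.95 at maf1. The gene isu1 encodes an iron-sulfur cluster scaffold protein, ole1 a fatty acid desaturase, maf1 a repressor of RNA polymerase III, and rps902 a protein of the small ribosomal subunit. At isu1, tcg1, ole1 and rps902 the 30 bases lay within annotated mRNA exons.

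The core was rarer at members than at shared peaks. It was present at 4.33% of members (11 of 254, exact 95% interval 2.18 to 7.62) and at 16.6% of shared peaks (168 of 1015, 14.3 to 19.0), against 14.1% of all Pcr1 peaks in the annotated part. Fisher's exact test, two-sided, gave p = 5.32e-08 and 4.26e-07 after Benjamini-Hochberg adjustment over the 8 shares compared. Of all windows of the same length in the annotated part, 3.15% held the core, and 3.11% of those centred outside protein-coding genes, both inside the interval of the members. The full palindrome, which contains the core, was found at 0 of 254 members, which allows a share of up to 1.18% (3 counts of 254; exact 95% upper limit 1.44%), and at 20 shared peaks (1.97%; exact test adjusted p = 0.0329). Outside protein-coding genes the core was at 3 of 140 members (2.14%) and at 122 of 674 shared peaks (18.1%). The core share rose with Pcr1 fold enrichment in shared peaks and not in members. The Pcr1 list was split by fold into 4 bins of equal size. From the lowest bin upward the core share of shared peaks was 6.42%, 8.26%, 12.5% and 32.5%. That of members was 5.43%, 3.75%, 2.70% and 0 of 8. In none of the 4 bins did the difference pass the adjusted exact test. Among peaks no wider than the third quartile of members the difference also missed it (-5.60 percentage points, exact test, adjusted p = 0.127, a restriction chosen after seeing the data).

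Fold enrichment is the authors' caller's ratio of signal at the summit over its control. It was 1.44 to 3.74 at members, with a median of 2.06, and 1.42 to 6.82 at shared peaks, with a median of 2.54. For 27 members (8.71%) and 86 shared peaks (6.84%) the listed summit lay outside the interval, so the fold there may not describe the interval itself. The interval of a member was also narrower, with a median of 144 bp against 293 bp, and its median −log10 q-value was 4.64 against 9.32. Only 13 members (4.19%) reached a fold of 3, against 434 shared peaks (34.5%). In the 4 fold bins, from the lowest upward, members made up 40.6%, 24.0%, 12.3% and 2.30% of the peaks. They were spread over the chromosomes, with 126 of 638 Pcr1 peaks on chromosome 1 (19.7%), 122 of 593 on chromosome 2 (20.6%) and 62 of 336 on chromosome 3 (18.5%).

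**Figure D1:**
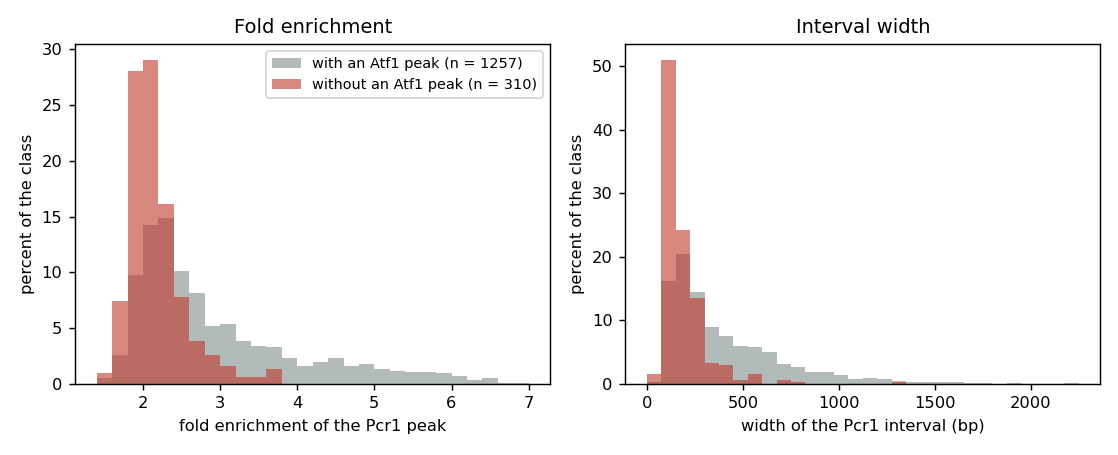
Share of each class (percent) by fold enrichment of the Pcr1 peak (left) and by interval width in bp (right), for the 310 members and the 1257 shared peaks. The members gather at low fold (median 2.06) and small width (median 144 bp), and the long upper tail to 6.82-fold belongs to the shared peaks.

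Many members lay close to an Atf1 peak without touching it. The median gap to the nearest Atf1 interval was 754.5 bp, 31 members (10.0%) were within 100 bp and 86 (27.7%) within 250 bp, and 266 (85.8%) within 5000 bp. The closest was the peak upstream of rpl1701, a gene of the large ribosomal subunit (chr2:1734042-1734154, 2.01-fold), with a gap of 2 bp. Next came peaks at swt1 (11 bp), SPAC222.17 (15 bp), SPAPB1A11.02 (15 bp) and sua7 (18 bp), the last encoding transcription factor TFIIB. On the other side of the rule, the smallest overlaps were 14 bp at ght7, a hexose transporter gene, 17 bp at byr3 and at dsk1, 21 bp for a peak starting at 2917914 on chromosome 2, and 30 bp at cdc48. Fold enrichment was 2.01 to 2.35 for these 5 members and 1.69 to 2.11 for these 5 shared peaks.

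**Figure D2:**
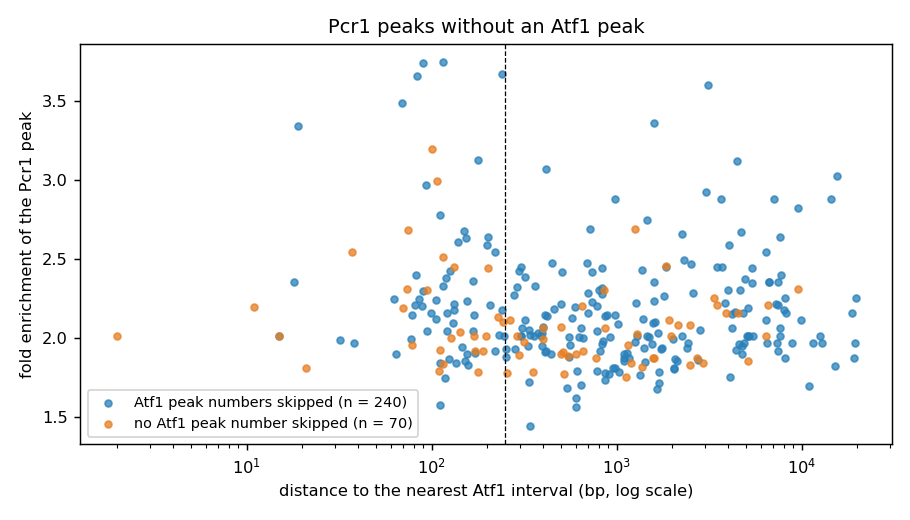
Fold enrichment of each of the 310 members against its distance to the nearest Atf1 interval (bp, log scale); colours mark the 240 members where Atf1 numbers are skipped and the 70 where none is, and the vertical line marks 250 bp. The 4 members of highest fold lie within 250 bp, and from 3.60-fold downward members are found on both sides of the line, with medians of 2.16-fold within 250 bp and 2.02-fold beyond it.

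Most members lay in stretches where the Atf1 list skips peak numbers. The caller numbers peaks in order along a chromosome, and the Atf1 list holds 1988 of the 2813 numbers up to its highest (70.7%). For 240 of the 310 members (77.4%) the Atf1 records on both sides had numbers with at least 1 skipped between them. Of all 1992 spaces between Atf1 peaks, 28.9% had a skipped number. The share was 74.3% of the 261 spaces that held a member and 22.0% of the 1731 that held none, and in spaces of like length it was 79.8% against 40.6% in the longest of 4 length classes and 68.8% against 6.64% in the shortest. A skipped number does not say where the missing record lay or why it is missing. Between consecutive numbers lay 70 members (4.47% of the Pcr1 peaks), with a median fold of 2.01.

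The strongest members lay at single genes of varied function, at tRNA genes and at retrotransposon sequence. The highest fold, 3.74, was reached both by a peak 1151 bp upstream of mrs3, a mitochondrial iron transporter gene (chr1:3664296-3664560, 115 bp from an Atf1 interval) and by a peak 47 bp upstream of imp4, which encodes a protein of the U3 small nucleolar ribonucleoprotein (chr1:2474510-2474652, 90 bp from an Atf1 interval). Next came the pcr1 gene itself (3.67-fold) and a proline tRNA gene near nop52 (3.65-fold). A pair of members lay near shu1, which encodes a heme-binding surface protein, at 3.60-fold (chr1:87374-87618) and 2.88-fold (chr1:86759-87056), 3114 and 3676 bp from the nearest Atf1 interval. Members inside coding sequence were found in meu10, which encodes a GPI-anchored protein (3.34-fold), and gcs1, the glutamate-cysteine ligase gene of glutathione synthesis (3.06-fold).

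Among the 20 strongest members, the rest in the annotated part lay by SPCPB1C11.03, a cysteine transporter gene (3.36-fold), SPCC1682.06 (3.19-fold), SPAC56F8.15 (3.12-fold), ire1 at the retrotransposon Tf2-2 (3.12-fold), set5 (2.92-fold), mdv1 (2.88-fold), SPAC14C4.04 (2.88-fold) and rod1 (2.88-fold). A further 4 lay on chromosome 2 beyond the annotated part, starting at 3618282 (3.48-fold), 4344239 (3.02-fold), 2392643 (2.99-fold) and 4424189 (2.97-fold). Within the whole Pcr1 list these 20 ranked from 246 to 483 by fold. Of the 20, 10 were within 250 bp of an Atf1 interval, 18 lay where Atf1 numbers are skipped and 7 overlapped a Deb1 peak. Over all members these shares were 27.7%, 77.4% and 8.39%. The core was held by 1 of the 16 in the annotated part, against 4.33% of all members there. A tRNA gene was touched by 5, those near nop52, SPCPB1C11.03, set5, mdv1 and SPAC14C4.04, and these 5 peaks are listed again below by tRNA gene. The strongest of the 20, at mrs3, lies in a non-coding RNA gene, and its summit is shown as an example of a member without the core (chr1:3664402-3664502, plus strand, 101 bases centred on the summit). The stretch does hold TGACG, the core without its last base, on the minus strand. TGACG lay within 100 bp of 19.7% of member summits and 34.5% of shared summits in the annotated part (exact test, adjusted p = 1.54e-05).

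mrs3 summit: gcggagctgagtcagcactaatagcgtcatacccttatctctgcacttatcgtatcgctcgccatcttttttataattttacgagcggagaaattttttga

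At pcr1, the gene that carries the FLAG tag in the Pcr1 strain, the promoter carried peaks of both proteins and the gene body a Pcr1 peak with no Atf1 peak. The pcr1 gene lies on the minus strand of chromosome 1 from 4252142 to 4253600. Its promoter held a shared peak (chr1:4253102-4253775, 4.69-fold) that overlapped an Atf1 peak of 4.65-fold. A member lay further in (chr1:4252227-4252822, 3.67-fold), with its summit in the coding sequence 1072 bp from the start of the 1459-bp gene, and its −log10 q-value of 38.3 was the highest of all members. A pair of weaker members followed past the end of the gene, at chr1:4251996-4252107 (1.81-fold) and chr1:4251451-4251785 (2.22-fold), both also upstream of rpl801.

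The atf1 gene, tagged in the Atf1 strain (chromosome 2, 1546217 to 1549862, plus strand), showed the reverse arrangement. Its promoter held both an Atf1 peak (3.04-fold) and a Pcr1 peak (4.86-fold), and a second Atf1 peak (chr2:1548882-1549334, 2.43-fold) in the coding sequence, 3046 bp from the start of the 3646-bp gene, had no Pcr1 peak. No list had a peak at deb1. At pcr1 and atf1, the coding sequence thus held a peak of the tagged protein that the partner's list lacked, where binding and an effect of the inserted tag cassette cannot be told apart with 1 list per protein, and 1 Atf1 number is skipped around the pcr1 member.

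Members lay less often in promoters and more often in coding sequence than shared peaks. The promoter window reached from 1000 bp before to 200 bp after the start of a protein-coding gene. It held the summit of 134 of 254 members (52.8%) and 646 of 1015 shared peaks (63.6%), against 61.5% of all Pcr1 peaks (Fisher's exact test, adjusted p = 0.00506). Coding sequence held 83 member summits (32.7%, 26.9 to 38.8) and 247 shared summits (24.3%), against 26.0% of all Pcr1 peaks (exact test, adjusted p = 0.0132); it makes up 56.5% of the annotated part. Both differences varied between fold bins. In the lowest bin by fold 44.2% of members and 36.4% of shared peaks were in coding sequence, in the middle bins members had the lower share (25% against 29.1%, and 10.8% against 25.1%), in the highest bin members had the higher share (25% against 12.9%), and promoter shares in the 2 lower bins were 49.6% against 49.2% and 58.8% against 57.8%. In the highest bin 25% of the 8 members and 79.1% of shared peaks were in promoters (exact test, adjusted p = 0.0155). Among peaks no wider than the third quartile of members neither difference passed (11.3 and -4.21 percentage points for coding sequence and promoters), and at a −log10 q-value of at least 10 the coding sequence difference turned to -0.777.

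Summits that fell only in non-coding genes made up 32.3% of members and 38.2% of shared peaks, against 37.0% of all Pcr1 peaks, a difference that missed the threshold (exact test, adjusted p = 0.0817). Between protein-coding genes, 47 of 138 members (34.1%) lay between divergent genes, where promoters face each other, and 280 of 656 shared peaks (42.7%) did. Tandem genes flanked 80 members (58.0%) and 329 shared peaks (50.2%), and convergent genes 11 members (7.97%) and 47 shared peaks (7.16%). The widest member, 1307 bp, covered the coding sequence of tef102, a gene for translation elongation factor 1-alpha (chr1:4095258-4096564, 2.82-fold), and lay 9510 bp from the nearest Atf1 peak. Sequence within 150 bp of a member summit was 63.0% ± 5.01 A+T (SD over 254 summits) and that around shared summits 61.6% ± 5.42 (SD over 1015 summits), a difference of 1.46 percentage points that was not tested.

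**Figure D3:**
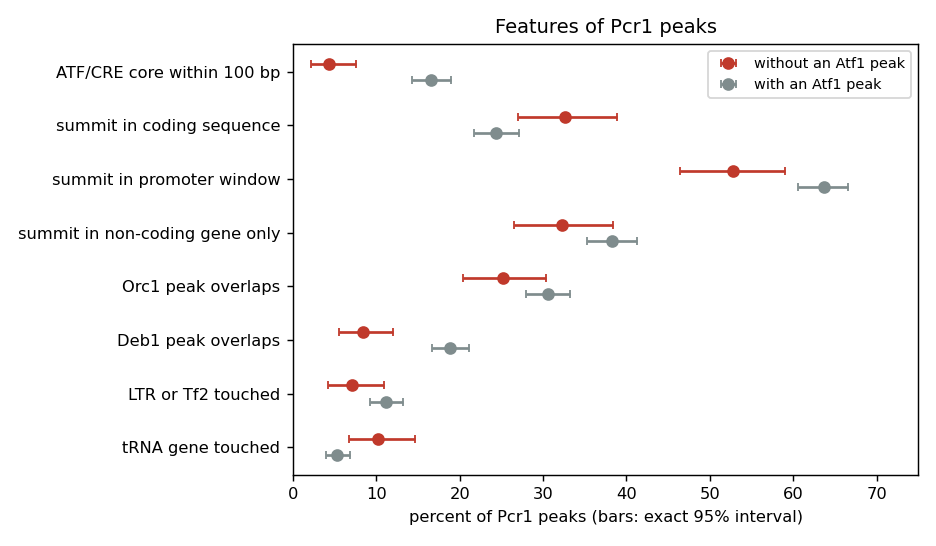
Percent of members and of shared peaks with each of 8 features; points are shares and bars exact 95% intervals, which cover counting error only. The core, Deb1 and promoter shares lie lower in members (4.33%, 8.39% and 52.8%), and the coding sequence and tRNA gene shares lie higher (32.7% and 10.2%).

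A larger share of members than of shared peaks touched a gene of transfer RNA. A tRNA gene was touched by 26 of 254 members (10.2%, 6.80 to 14.6) and by 54 of 1015 shared peaks (5.32%, 4.02 to 6.88), against 6.30% of all Pcr1 peaks (Fisher's exact test, adjusted p = 0.0118); tRNA genes make up 0.118% of the annotated bases. Members touched 27 of the 155 tRNA genes there, and the more numerous shared peaks touched 61. The strongest were a proline tRNA gene (SPBTRNAPRO.04, 3.65-fold), SPCTRNAGLN.06 for glutamine (3.36-fold), SPCTRNAGLY.12 for glycine (2.92-fold), SPATRNALYS.02 for lysine (2.88-fold) and SPATRNAASP.02 for aspartate (2.88-fold). The median fold of the 26 was 2.17, against 2.64 for the shared peaks at tRNA genes. Among peaks no wider than the third quartile of members, a restriction chosen after seeing the data, the difference turned to -0.554 percentage points (exact test, adjusted p = 0.883).

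Most tRNA genes touched by members or by shared peaks have identical copies, and the share over all tRNA genes was not computed. Of the 26 members at tRNA genes, 22 (84.6%) touched a gene with an identical copy elsewhere in the genome, and of the 54 shared peaks 40 (74.1%) did. Proline tRNA genes show this, since SPATRNAPRO.03 (chr1:1449398-1449469, minus strand, member of 2.45-fold), SPBTRNAPRO.04 (chr2:1825787-1825858, minus strand, member of 3.65-fold) and SPCTRNAPRO.09 (chr3:1788949-1789020, plus strand, member of 2.45-fold) have the same 72 bases, of which the genome holds 6 copies. The RefSeq sequence is shown in capitals throughout because every base is shared.

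proline tRNA gene: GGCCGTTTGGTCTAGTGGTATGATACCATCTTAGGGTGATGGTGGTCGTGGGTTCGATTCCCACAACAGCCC

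The treatment of reads with several placements is not stated, and its part in these peaks was not tested. Orc1 peaks overlapped 24 of the 26 members at tRNA genes (92.3%) and 50 of the 54 shared peaks there (92.6%).

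Deb1 peaks met fewer members than shared peaks. A Deb1 interval overlapped 26 of 310 members (8.39%, 5.55 to 12.0) and 237 of 1257 shared peaks (18.9%, 16.7 to 21.1), against 16.8% of all Pcr1 peaks (Fisher's exact test, adjusted p = 1.54e-05). The member of highest Deb1 fold was the one upstream of imp4 (Deb1 6.58-fold), followed by SPAC6B12.14C (6.44-fold), a peak on chromosome 2 starting at 2392643 (6.22-fold), lto1 (6.18-fold), wtf15 (5.62-fold), a Deb1 peak of 5.49-fold that 2 members near she9 share, and SPAPB2C8.01 (5.34-fold). In the annotated part 13 of the 24 members with Deb1 (54.2%) touched a long terminal repeat or a Tf2 retrotransposon, as did 77 of 197 shared peaks with Deb1 (39.1%). Repeats of this kind were touched by 18 members in all (7.09%) and 113 shared peaks (11.1%), against 10.3% of all Pcr1 peaks, which did not pass the test (exact, adjusted p = 0.0805). The Deb1 difference was not past the exact test's threshold within any bin by fold, and in the highest bin 4 of the 9 members overlapped Deb1 (44.4%, against 30.5% of shared peaks). It also missed the threshold under the width limit (-3.52 percentage points, exact test, adjusted p = 0.266) and at a −log10 q-value of at least 10 (-3.76, adjusted p = 0.971).

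Orc1 peaks overlapped 78 members (25.2%, 20.4 to 30.4) and 384 shared peaks (30.5%, 28.0 to 33.2), against 29.5% of all Pcr1 peaks, and this difference did not pass the test (Fisher's exact test, adjusted p = 0.0805). The highest Orc1 folds under members were at hsr1 and pcs2 (5.57-fold each), car1 (5.14-fold), an aspartate tRNA gene near SPAC14C4.04 (4.92-fold), SPBC36.02C (4.64-fold), a glutamate tRNA gene near rpb1 (4.61-fold), a lysine tRNA gene near mdv1 (4.52-fold) and SPAC750.06C (4.39-fold). In the annotated part Orc1 overlapped 66 of 254 members and 305 of 1015 shared peaks, and without the peaks at tRNA genes its shares there were 18.4% of members (42 of 228) and 26.5% of shared peaks (255 of 961). Neither Deb1 nor Orc1 was present at 214 members (69.0%) and 728 shared peaks (57.9%).

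**Figure D4:**
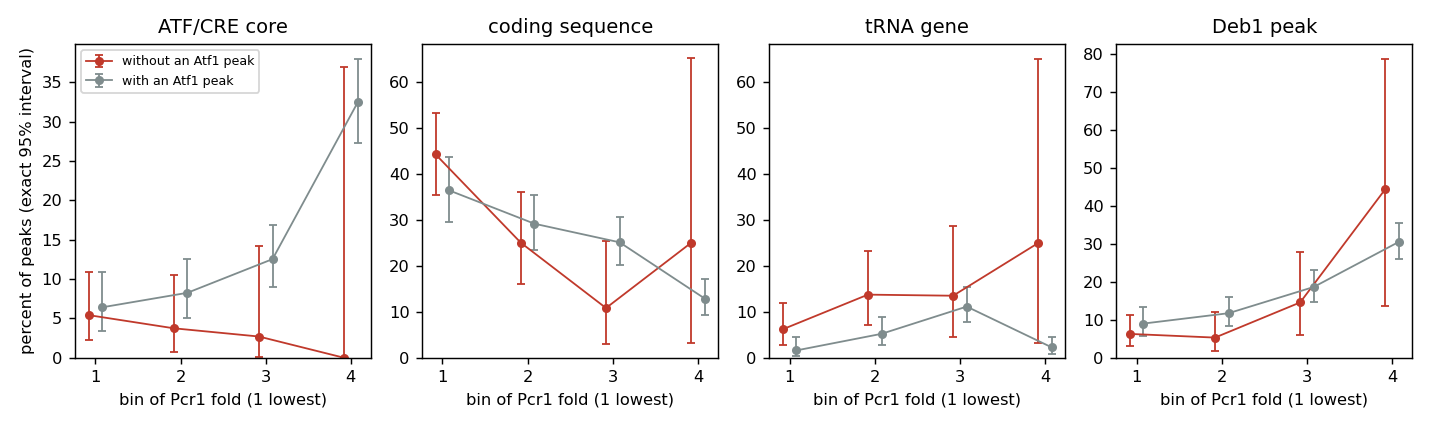
Percent of members and of shared peaks with the core, in coding sequence, at a tRNA gene or under a Deb1 peak in each bin of the Pcr1 list by fold enrichment (1 is the lowest); bars are exact 95% intervals. The share with the core rises with fold in shared peaks, from 6.42% to 32.5%, and the wide intervals of members in the highest bin rest on 9 peaks for Deb1 and on 8 for the other features.

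At promoters, most lists of stress and growth genes had shared peaks and no member, but these lists are short. Of 4090 protein-coding genes in the annotated part, 155 (3.79%) had a member summit in the promoter window and 743 (18.2%) a shared summit. No gene of the ATF/CREB factors (6 genes), stress protection (13), carbon metabolism (20), histones (8), or G1-S transition and replication (19) had a member summit in its promoter window. Shared summits lay in the windows of 4, 9, 15, 6 and 4 of them. Flocculin genes with their regulators (11 genes) and translation elongation and heat shock genes (10) had no member summit there either, with shared summits at 2 and 5. Members outside the promoter windows of these genes, such as the one in the coding sequence of pcr1 and the one over that of tef102, are not counted here. Among 15 genes of the Sty1 pathway, mak2, a histidine kinase gene, had a member (1.91-fold) and 9 had a shared peak.

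Ribosomal protein genes, the longest of the 13 lists, held the largest number of members. Of 107 such genes 10 (9.35%) had a member and 18 (16.8%) a shared summit, and no gene had both. The highest folds were 2.24 at rpl302, 2.22 at rpl801, 2.21 at rps3001 and 2.20 at rpl902. The members at rpl801 are the pair past the end of the tagged pcr1 gene. The summit at rpl902 lies in coding sequence, with rng3 as the nearest gene. These lists were not tested, and the share of 9.35% stands beside 3.79% over all genes.

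In other lists, frp1, the ferric reductase gene of iron uptake, had a member 94 bp upstream (chr2:162406-162832, 2.45-fold) and 6 of the 9 iron uptake genes had a shared peak. A member lay upstream of mei3, the inducer of meiosis (2.32-fold), and of ste7 (1.75-fold), out of 20 mating and meiosis genes. Of 17 heterochromatin factor genes, swi6, which encodes the fission yeast HP1 protein, had a member 488 bp upstream at a lysine tRNA gene (2.35-fold). Among 81 mug genes, named for upregulation in meiosis, 5 had a member (6.17%), led by mug115 (3.12-fold), mug133 (2.49-fold), mug146 (2.22-fold) and mug70 (1.83-fold, at a serine tRNA gene).

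**Figure D5:**
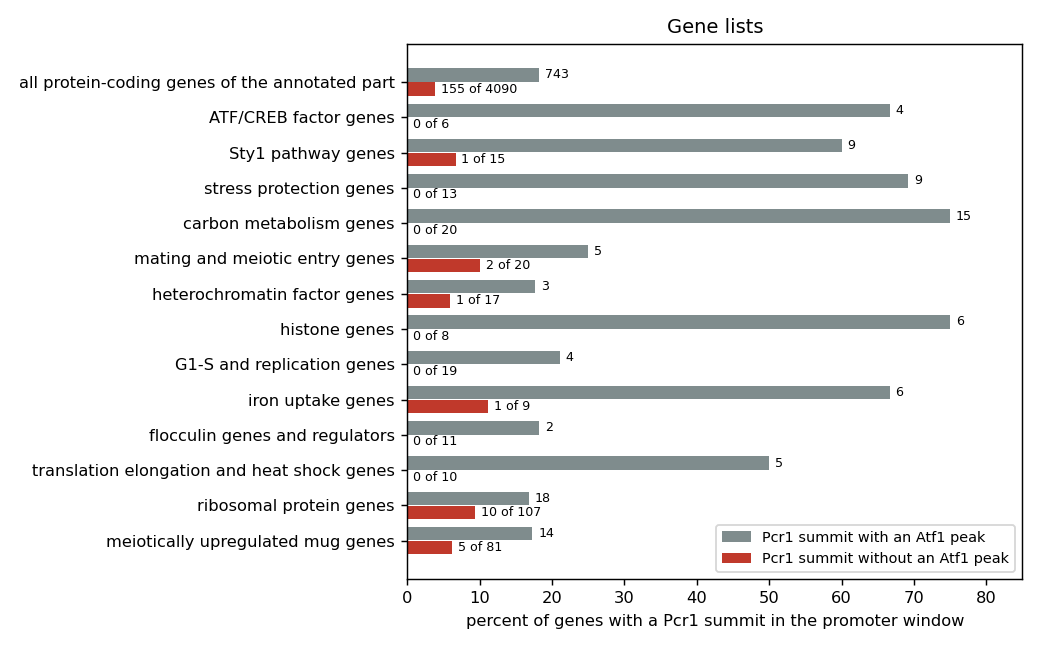
Percent of the genes of each list with a member summit or a shared summit in the promoter window. Ribosomal protein genes have members at 9.35% of genes. The lists of stress protection, carbon metabolism and histone genes have only shared summits, but hold 13, 20 and 8 genes, and the member share over all genes is 3.79%.

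Some promoters held several members and no shared summit. The windows of the neighbouring genes she9 and ptf1 held the same 3 members, and that of cbp6 held 3 others. Those of the neighbours idh2 and mto2 held the same 2 members, and those of SPAC11D3.08C, rpl801, rng3 and pps1 held 2 each. The pair at rpl801 is the one past the end of the tagged pcr1 gene. In the stretch of chromosome 2 that contains the mating-type region there were 2 members, at 2128105 to 2128305 (2.09-fold) and at 2129352 to 2129559 (2.05-fold), given in the coordinates of the lists, and the second overlapped an Orc1 peak of 2.22-fold. They lay 1569 and 2816 bp from the nearest Atf1 interval.

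Other words of 6 bases near member summits were ranked on chromosome 1, and the highest was tested on the other chromosomes. This word, CCAACC, highest of 333, was near 10 of 126 members there (7.94%) and 12 of 512 shared peaks (2.34%). On chromosomes 2 and 3 it was near 7 of 128 members (5.47%) and 20 of 503 shared peaks (3.98%), which did not pass the test (Fisher's exact test, p = 0.464), and 2.97% of all windows of that length held it.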

How the data were processed

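The deposited lists have the narrowPeak layout, as their deposited columns show. For every peak they hold the fold over the control (a ratio made by the authors' caller), the −log10 of its q-value, a score and the position of the summit. Bowtie 1.2.3 and MACS2 2.1.2 are named beside bedtools, without roles, in the submitters' processing notes. The build and the use of controls are not stated, and depth per sample is unknown. The summit was start plus offset, or the midpoint where the offset fell outside the interval (27 members, 8.71%).

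The reference was RefSeq ASM294v3. With no shift, the core lay within 40 bp of 20.3% of the Pcr1 and Atf1 summits with a fold of 2.5 or more on chromosome 1, 20.1% of those on chromosome 3 and 20.4% of those on chromosome 2 before 2110000, but 1.63% after 2160000, where 24.1% had it at a shift of 12220 bp. Genes and sequence were therefore used only in the first 3 stretches, and no coordinate was converted.

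Shares were compared by two-sided Fisher's exact tests with Benjamini-Hochberg adjustment over 8 (Python 3.11.15, scipy 1.17.1, pandas 2.3.3), with a threshold of 0.05, after the code was tested on simulated data. Neighbouring peaks and repeated genes are not independent, so p-values may be too small. Clopper-Pearson intervals and limits for a count of 0 cover counting error only. Members and lists were chosen with earlier results of these data known. Named were the 20 members of highest fold; up to 8 each with the core, Deb1 or Orc1; up to 4 per gene list; members at the boundary of the rule, at the mating-type region and at promoters with several members; and atf1, pcr1 and deb1. The widest member, the tRNA gene members and the word were added after their values were seen. Alternatives were the q-value, the summit, distance to Atf1, repeats, fold bins, windows, motifs, width and skipped numbers.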

Additional observations from a re-analysis of the deposited data

How the results depend on the processing

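Differences below are members minus shared peaks in percentage points. The core, promoter and tRNA gene differences kept their direction and their side of the threshold under a −log10 q-value of at least 10, summits inside intervals, members within 250 bp of Atf1 left out and repeats left out, and the core difference also with other windows, the palindrome, TGACG and members between consecutive Atf1 numbers. The core difference kept its direction but missed the threshold within fold bins (-0.991, -4.51, -9.84 and -32.5 from the lowest) and under the width limit (-5.60). In the same bins the coding sequence difference was 7.82, -4.13, -14.3 and 12.1, the Deb1 difference -2.72, -6.43, -4.08 and 13.9, and the tRNA gene difference 4.60, 8.53, 2.36 and 22.7, none past the threshold, while the promoter difference was 0.415, 0.924 and -4.22 in the lower 3. A −log10 q-value of at least 10 turned the coding sequence difference to -0.777 and left Deb1 at -3.76 (exact test, adjusted p = 0.971). Summits inside intervals brought the non-coding gene difference past the threshold (-7.89, exact test, adjusted p = 0.0445), and leaving out members within 250 bp of Atf1 did so for repeats (-5.28, exact test, adjusted p = 0.0357). Of the alternatives chosen after seeing the data, members between consecutive Atf1 numbers gave 13.9 for tRNA genes, past the threshold (exact test, adjusted p = 0.00506). They gave 0.665 for coding sequence, -5.95 for promoters and -7.43 for Deb1, none past it. The width limit gave 11.3, -4.21 and -3.52 for these and -0.554 for tRNA genes, also none past the threshold. The cause was not tested, beyond fewer peaks per comparison. The number of members was 32 of 630 Pcr1 peaks (5.08%) with the −log10 q-value limit on Pcr1. Of all 1567 it was 825 (52.6%) with the limit on Atf1 and 70 (4.47%) between consecutive Atf1 numbers. Under 3 other rules of overlap with or distance to Atf1 it was 353, 224 and 386. Unknown depth limits what absence of an Atf1 peak can show. No paired analysis was possible because each protein has 1 list and no column carries a replicate number.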
